A study of Mus with 6 samples.

Results

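The clock output factors described here are 9 mouse genes for transcriptional regulators that sit next to, or one step downstream of, the circadian clock. They were taken by gene symbol from a deposited table of 54532 genes. They comprise the PAR-bZIP activators Dbp, Tef and Hlf, the repressors Nfil3, Bhlhe40, Bhlhe41 and Ciart, and the nuclear receptors Rora and Rorb. All 9 symbols were found once each, and all 9 were among the 16155 genes tested, which average 0.5 FPKM or more over the libraries. The libraries came from brain tissue labelled as basolateral amygdala, from 3 male-labelled mice with a knockout of Cntnap4 (KO) and 3 male-labelled wild-type mice (WT). Cntnap4 encodes a contactin-associated neuronal adhesion protein of the neurexin superfamily, and the comparison asks which transcripts differ between the genotypes. No treatment is named for any of the 6 samples, although the series title speaks of a bacterial one. The labels state neither age nor strain, nor the design of the knockout allele, nor the hour of tissue collection. Levels are in FPKM, which divides a gene's fragments by its length and by a measure of library size, so they can be compared between genes.

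In the mammalian clock, CLOCK or NPAS2 pairs with BMAL1 (encoded by Arntl) and switches on genes through E-box elements, among them Per, Cry, Nr1d1, Dbp and the DEC genes. The PAR-bZIP proteins DBP, TEF and HLF, named for a proline and acidic amino acid-rich stretch beside a basic leucine zipper, then activate a further layer of genes through D-box elements. NFIL3 binds the same elements and represses. The DEC proteins, encoded by Bhlhe40 and Bhlhe41, compete with CLOCK and BMAL1 at E-boxes, and CIART, also called CHRONO, binds BMAL1 and lowers its activity. The ROR receptors activate Arntl and other genes through ROR elements, where the REV-ERB receptors encoded by Nr1d1 and Nr1d2 repress. Mice that lack Dbp, Tef and Hlf together are prone to seizures, and the loss lowers pyridoxal kinase in the brain.

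Libraries held 17647556 to 18936386 reads in genes in KO and 17789079 to 20813211 in WT. The library labelled KO replicate 1 went against its labelled sex. Xist, the long RNA that silences an X chromosome in females, stood at 43.0 FPKM there and no higher than 0.0346 FPKM elsewhere. The same library had 0 reads on 4 Y-linked genes, where each remaining library had 2831 to 4001. Cntnap4 itself measured 1.61, 1.00 and 1.48 FPKM in KO replicates 1 to 3 and 2.03, 3.59 and 4.91 FPKM in WT replicates 1 to 3 (log2 difference -1.05 ± 0.28 SE, limma adjusted p = 0.220). KO replicate 2 stood apart in its regional markers. Its summed FPKM over 10 markers of pallial excitatory neurons was 139.0, against 43.4 and 39.7 in KO replicates 1 and 3 and 18.4 to 19.9 in WT. Its sum over 10 hypothalamic markers was 8.62, against 1101 and 354 in KO replicates 1 and 3 and 520 to 974 in WT. WT tissue held Slc17a7, the vesicular transporter of pallial glutamatergic neurons, at 5.83 ± 0.535 FPKM beside the striatal neuropeptide gene Penk at 383 ± 64.3 FPKM (SD, n = 3). The pieces as dissected are therefore what the values below describe. In bulk tissue, fewer cells of a type and less RNA per cell cannot be told apart.

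None of the 9 genes passed the limma test across all genes, in which 0.0124% of the genes tested passed at an adjusted p of 0.05. Before adjustment, 5 of the 9 had a p under 0.05, all with higher values in KO, against 8.36% of all genes tested in that direction. For the same 5 genes, namely Tef, Nfil3, Bhlhe40, Bhlhe41 and Ciart, every KO value lay above every WT value, as it did for 11.8% of all genes tested. No member was lower in KO by either measure, against 6.85% and 10.8% of all genes. The median log2 difference over the 9 genes was 0.25, and over all genes tested it was 0.0067. The count of 5 with an unadjusted p under 0.05 was 3 without KO replicate 1, 3 without KO replicate 2, 3 without WT replicate 1 and 2 without WT replicate 2. It was 2 when libraries were rescaled to an equal FPKM sum. The share of all genes tested in that direction fell too, from 8.36% to 7.56%, 7.28%, 6.81%, 5.34% and 4.09% in the same order. The count of genes whose values lay apart in the higher direction was 5 or 6 when any single library was left out. That count could not fall below 5, because groups that lie apart stay apart when a library is removed.

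**Figure D1:**
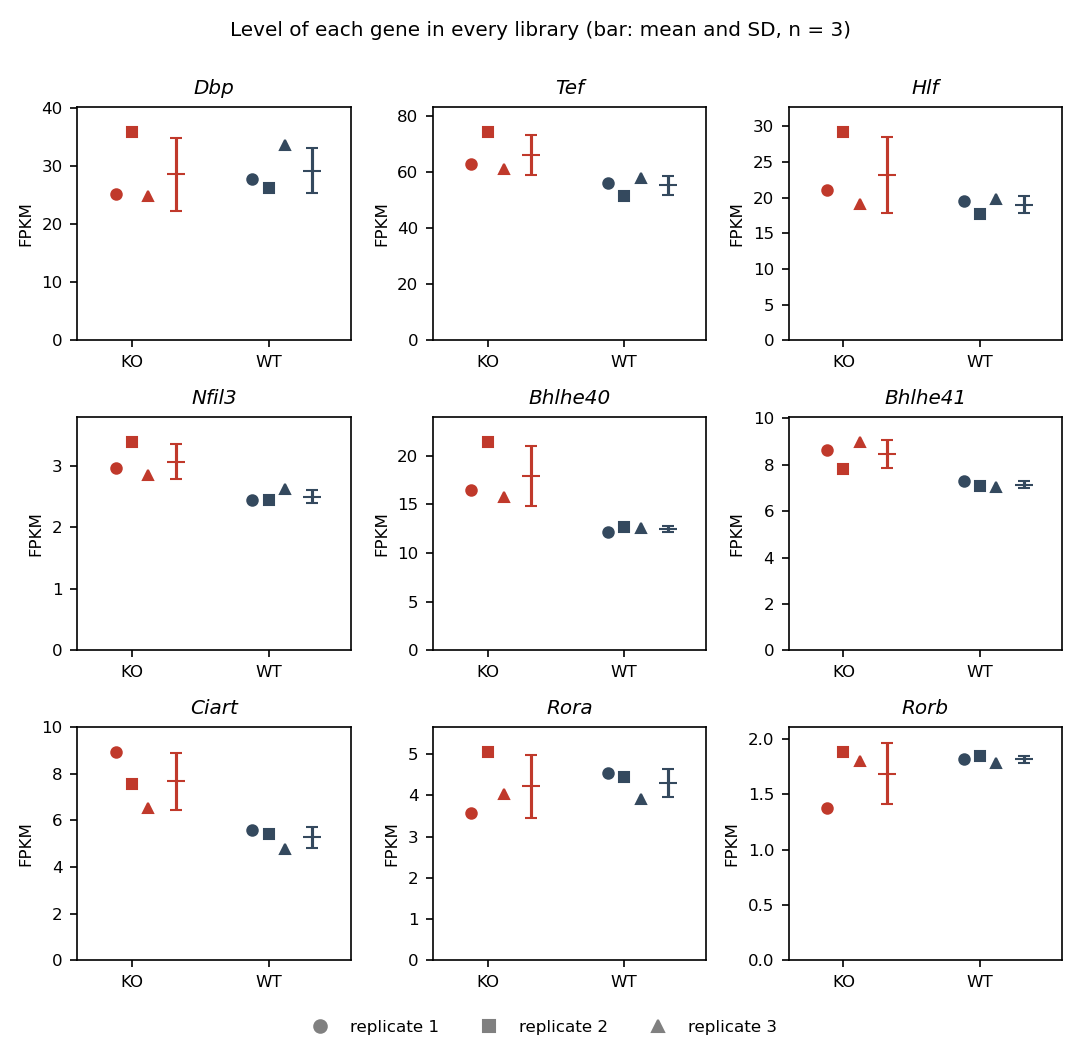
FPKM of the 9 genes in each library, with KO left of WT in every panel, symbols for replicates 1 to 3 and bars for the mean and SD (n = 3 each). All KO points lie above all WT points for Tef, Nfil3, Bhlhe40, Bhlhe41 and Ciart, while the groups overlap for Dbp, Hlf, Rora and Rorb.

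The genes spanned a wide range of abundance. Tef was the most abundant, with a mean of 60.6 FPKM over the 6 libraries, rank 714 of all genes in the table. It was followed by Dbp at 28.9, Hlf at 21.1, Bhlhe40 at 15.2, Bhlhe41 at 7.81, Ciart at 6.48, Rora at 4.26, Nfil3 at 2.78 and Rorb at 1.75 FPKM. This order held within every library for each neighbouring pair except Bhlhe41 and Ciart, where Bhlhe41 was the higher in 5 of 6 libraries. Across libraries, the ranges of Dbp and Hlf overlapped, as did those of Hlf and Bhlhe40, Bhlhe41 and Ciart, and Ciart and Rora. Each activator was more abundant in every library than Nfil3, the repressor that shares their D-box elements.

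Bhlhe40 and Ciart, repressors that act on CLOCK and BMAL1, had the largest log2 differences of the set. Bhlhe40, which encodes DEC1, a basic helix-loop-helix repressor that neuronal activity also induces, measured 16.5, 21.4 and 15.7 FPKM in KO replicates 1 to 3 and 12.2, 12.7 and 12.6 FPKM in WT replicates 1 to 3. The WT libraries were close together, and the lowest KO library was above the highest WT library. The gene (ENSMUSG00000030103, chromosome 6, 108660629 to 108666925, plus strand, GRCm38) averaged 17.9 ± 3.08 FPKM in KO and 12.5 ± 0.268 FPKM in WT (SD, n = 3 each), a ratio of 1.43. Its log2 difference was 0.49 ± 0.12 SE, with a 95% interval of 0.21 to 0.77 and a limma adjusted p = 0.205. KO replicate 2 was 1.33 times the mean of the other KO libraries. Without KO replicate 2 the log2 difference was 0.36 (limma unadjusted p = 0.0019, adjusted p = 0.195), and without KO replicate 1 it was 0.54. Over all 19 alternative fits the unadjusted p of Bhlhe40 was under 0.05 and the adjusted p ran from 0.123 to 0.479.

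Ciart was highest in a different KO library. Its values were 8.94, 7.57 and 6.51 FPKM in KO replicates 1 to 3 and 5.61, 5.44 and 4.78 FPKM in WT replicates 1 to 3. All KO values were above all WT values, and the highest of them came from KO replicate 1, the library that goes against its labelled sex. The gene (ENSMUSG00000038550, chromosome 3, 95878503 to 95882251, minus strand) averaged 7.68 ± 1.21 FPKM in KO and 5.28 ± 0.437 FPKM in WT, a ratio of 1.45. The log2 difference was 0.49 ± 0.12 SE, with a 95% interval of 0.20 to 0.78 and a limma adjusted p = 0.207. Leaving out KO replicate 1 gave 0.38, and leaving out KO replicate 2 gave 0.50. With KO replicate 3 as the only KO library it was 0.28, and the unadjusted p of 0.079 was the only one among 19 alternative fits that missed 0.05.

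Bhlhe41 and Nfil3 showed smaller differences. Bhlhe41, the gene for DEC2, the closest relative of DEC1 and a regulator of sleep length in mice and people, measured 8.65, 7.79 and 8.98 FPKM in KO and 7.32, 7.07 and 7.03 FPKM in WT replicates 1 to 3. Here KO replicate 2 was the lowest KO library, the reverse of its place for Bhlhe40. Bhlhe41 (ENSMUSG00000030256, chromosome 6, 145858243 to 145865558, minus strand) averaged 8.47 ± 0.611 FPKM in KO and 7.14 ± 0.154 FPKM in WT. The log2 difference was 0.23 ± 0.078 SE, with a 95% interval of 0.046 to 0.41 and a limma adjusted p = 0.268. Leaving out KO replicate 2 gave 0.29, and leaving out KO replicate 1 gave 0.21. The unadjusted p was under 0.05 in 13 of 19 alternative fits. The ratio of Bhlhe41 to Bhlhe40 was 0.524, 0.364 and 0.571 in KO replicates 1 to 3 and 0.602, 0.559 and 0.560 in WT replicates 1 to 3. These ratios overlapped between the groups, and KO replicate 2 stood lowest.

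Nfil3, the D-box repressor, measured 2.97, 3.38 and 2.84 FPKM in KO and 2.43, 2.44 and 2.61 FPKM in WT replicates 1 to 3. The FPKM values did not overlap, but they rest on few reads. The libraries held 113, 124 and 102 Nfil3 reads in KO and 91, 89 and 115 in WT, and these raw counts overlap because WT replicate 3 was the deepest library. At the lowest count, counting error alone is 10.6%, larger than the coefficient of variation of 9.23% between the KO libraries. Nfil3 (ENSMUSG00000056749, chromosome 13, 52967209 to 52981073, minus strand) had a log2 difference of 0.25 ± 0.098 SE, with a 95% interval of 0.016 to 0.48 and a limma adjusted p = 0.303. The unadjusted p was under 0.05 in 10 of the 18 alternative fits that tested this gene.

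Among the PAR-bZIP activators, the level of Tef was apart between the groups, whereas Hlf and Dbp overlapped. Tef, first described as a thyrotroph factor and less rhythmic than Dbp in many tissues, measured 62.9, 74.2 and 61.0 FPKM in KO and 56.2, 51.4 and 57.9 FPKM in WT replicates 1 to 3. Its lowest KO value was above its highest WT value. Tef (ENSMUSG00000022389, chromosome 15, 81802421 to 81826863, plus strand) averaged 66.0 ± 7.11 FPKM in KO and 55.2 ± 3.35 FPKM in WT. The log2 difference was 0.25 ± 0.098 SE, with a 95% interval of 0.022 to 0.48 and a limma adjusted p = 0.297. It was 0.17 without KO replicate 2, where the unadjusted p was 0.084. The unadjusted p of Tef was under 0.05 in 11 of 19 alternative fits. The fits that missed 0.05 included the equal FPKM sum, quantile normalization, the replicate block and limma without the trend and robust options. Those without WT replicate 1 or WT replicate 2 missed it as well.

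Hlf, a family member abundant in neurons, measured 21.1, 29.2 and 19.2 FPKM in KO and 19.6, 17.7 and 19.8 FPKM in WT replicates 1 to 3. KO replicate 3 fell within the WT range, and KO replicate 2 was 1.45 times the mean of the other KO libraries. The log2 difference of Hlf (ENSMUSG00000003949, chromosome 11, 90336536 to 90390895, minus strand) was 0.25 ± 0.15 SE, with a 95% interval of -0.11 to 0.61 and a limma adjusted p = 0.468. Without KO replicate 2 it was 0.078, so this library decides the size of the estimate.

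Dbp, usually the most strongly rhythmic PAR-bZIP gene and a direct CLOCK and BMAL1 target, did not separate the groups. Its values were 25.1, 35.9 and 24.9 FPKM in KO and 27.8, 26.2 and 33.6 FPKM in WT replicates 1 to 3. KO replicates 1 and 3 were the lowest of the 6 libraries and KO replicate 2 was the highest. Dbp (ENSMUSG00000059824, chromosome 7, 45705088 to 45710203, plus strand) averaged 28.6 ± 6.28 FPKM in KO and 29.2 ± 3.90 FPKM in WT. The log2 difference was -0.041 ± 0.16 SE, with a 95% interval of -0.43 to 0.35 and a limma adjusted p = 0.926. It was -0.21 without KO replicate 2 (limma unadjusted p = 0.110), when the remaining KO values lay below all WT values, and it was 0.041 without KO replicate 1.

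The summed FPKM of Dbp, Tef and Hlf was 109, 139 and 105 in KO and 104, 95.3 and 111 in WT replicates 1 to 3, and the groups overlapped. Tef made up 57.6%, 53.3% and 58.1% of that sum in KO and 54.2%, 53.9% and 52.0% in WT. The share of Dbp was 23.0%, 25.8% and 23.7% in KO and 26.9%, 27.4% and 30.2% in WT, so each KO share lay below each WT share. Relative to Nfil3, the opposing factor at D-boxes, Dbp stood at 8.47, 10.6 and 8.75 in KO and at 11.4, 10.7 and 12.9 in WT. These ratios lay apart, narrowly, since KO replicate 2 was just under WT replicate 2. Nfil3 was itself apart and higher in KO, and its counting error reached 10.6% at its lowest count. Arntl peaks in rhythmic tissues at the opposite time of day from Dbp. Relative to Arntl, the Dbp ratio was 7.93, 8.41 and 8.76 in KO and 9.02, 10.6 and 11.4 in WT. These ratios did not overlap either, but KO replicate 3 was close under WT replicate 1. A ratio within a library does not depend on how that library was scaled. These ratios and shares were not tested, and how often other gene pairs lie apart was not measured. The hour of collection is not known, and the KO libraries also differed in regional and sex markers. Clock phase, tissue composition, sex and genotype therefore cannot be told apart in them.

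**Figure D2:**
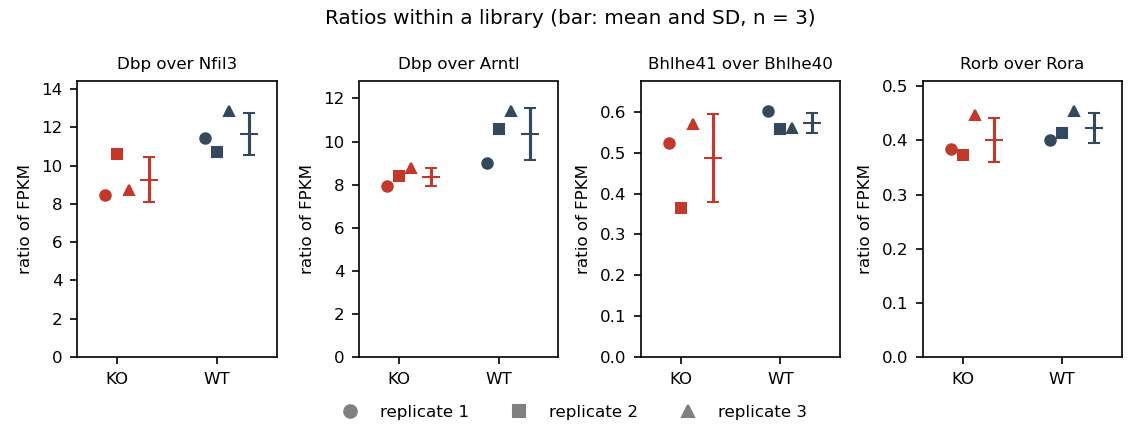
Ratios of FPKM between pairs of genes in each library, with KO left of WT, symbols for replicates 1 to 3 and bars for the mean and SD (n = 3 each). Dbp over Nfil3 and Dbp over Arntl have all KO points below all WT points, whereas Bhlhe41 over Bhlhe40 and Rorb over Rora overlap.

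The ROR receptor genes did not separate the groups. Rora, whose loss in the staggerer mouse disrupts cerebellar Purkinje cells and which is also strong in thalamic neurons, measured 3.58, 5.05 and 4.03 FPKM in KO and 4.54, 4.45 and 3.92 FPKM in WT replicates 1 to 3. The KO libraries held both the highest and the lowest value. Rora (ENSMUSG00000032238, chromosome 9, 68653786 to 69388246, plus strand) had a log2 difference of -0.035 ± 0.13 SE, with a 95% interval of -0.34 to 0.27 and a limma adjusted p = 0.921. Rorb, a marker of thalamic nuclei and of the middle layers of sensory cortex, measured 1.37, 1.88 and 1.80 FPKM in KO and 1.82, 1.84 and 1.78 FPKM in WT replicates 1 to 3. KO replicate 1 lay farthest from the narrow WT range. Rorb (ENSMUSG00000036192, chromosome 19, 18930605 to 19111196, minus strand) had a log2 difference of -0.090 ± 0.13 SE, with a 95% interval of -0.39 to 0.21 and a limma adjusted p = 0.769. Without KO replicate 1 the differences were 0.064 for Rora and 0.018 for Rorb. Rorb stood at 0.384, 0.372 and 0.448 of the Rora level in KO and at 0.400, 0.414 and 0.454 in WT, and these ratios overlapped.

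**Figure D3:**
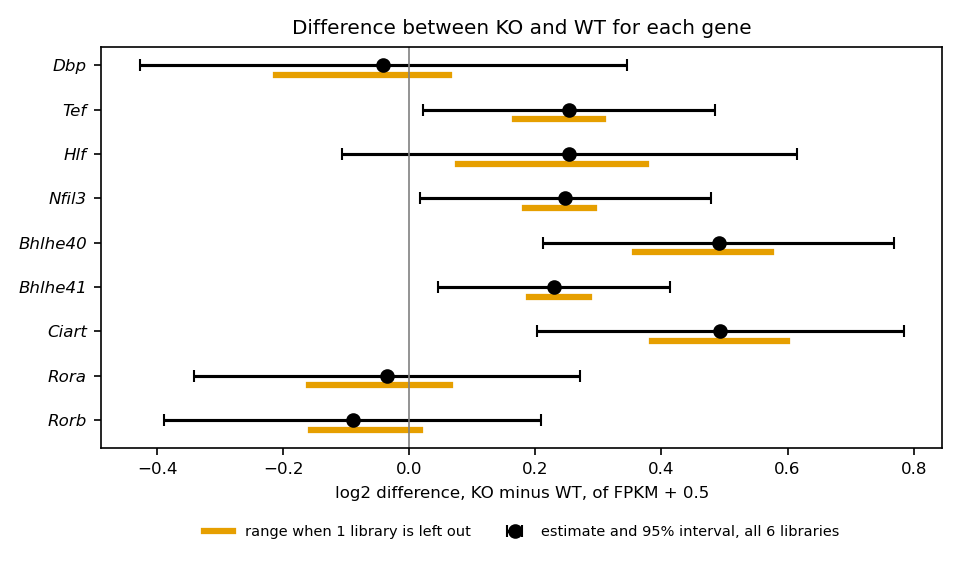
Log2 difference, KO minus WT, of FPKM + 0.5 for each gene, with points and black bars for the limma estimate and its 95% interval and orange bars for the range when any single library is left out. The intervals of Tef, Nfil3, Bhlhe40, Bhlhe41 and Ciart lie above 0, and those of Dbp, Hlf, Rora and Rorb span it.

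The KO libraries differed among themselves more than the WT libraries did. The coefficient of variation was larger in KO than in WT for all 9 genes, as it was for 57.8% of all genes tested. For Bhlhe40 it was 17.2% in KO and 2.15% in WT, for Hlf 23.0% and 5.89%, and for Rorb 16.2% and 1.68%. KO replicate 2 held the highest of the 6 values for 7 of the 9 genes, a place it took for 24.9% of all genes tested. The exceptions were Ciart, highest in KO replicate 1, and Bhlhe41, highest in KO replicate 3. Relative to the mean of the other KO libraries, KO replicate 2 stood at 1.44 for Dbp, 1.33 for Rora, 1.20 for Tef, 1.18 for Rorb and 1.16 for Nfil3.

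Marker lists of 10 genes each were read in the same libraries, and 0 of their genes passed over all genes. Of all genes tested, 11.8% were apart and higher and 10.8% were apart and lower. All 10 markers of pallial excitatory neurons had positive log2 differences, 7 of them with no overlap, and their sums ranged from 39.7 to 139.0 FPKM in KO and from 18.4 to 19.9 FPKM in WT. None of these markers was below 0.5 FPKM in every library. The sums of 10 striatal projection neuron markers ranged from 1181 to 1677 FPKM in KO and from 826 to 1108 FPKM in WT, with 5 of the 10 apart and higher. Oligodendrocyte markers were apart and lower for 9 of 10 genes, with sums of 604 to 891 FPKM in KO and 1077 to 1423 FPKM in WT. Microglial sums were 230 to 293 FPKM in KO and 280 to 314 FPKM in WT, with 4 of 10 apart and lower. Interneuron sums were 711 to 830 FPKM in KO and 591 to 704 FPKM in WT, with 3 of 10 apart and higher and 2 apart and lower. Astrocyte sums, 643 to 754 FPKM in KO and 651 to 696 FPKM in WT, overlapped with 0 of 10 genes apart, and endothelial sums overlapped as well at 113 to 133 FPKM in KO and 114 to 145 FPKM in WT, with 1 of 10 apart and lower.

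For the ROR genes, thalamic and cerebellar markers were read beside the members. The sums of 10 thalamic markers were 49.9 to 57.1 FPKM in KO and 59.2 to 60.9 FPKM in WT, and the lowest came from KO replicate 2. The markers did not move together in that library. Among the KO libraries it was lowest for Slc17a6 (5.40 FPKM) and Rgs16 (3.90 FPKM) and highest for Adarb1 (27.2 FPKM). Of the 10, 3 had positive and 7 negative log2 differences, with a median of -0.080. In this list 0 genes were apart and higher and 1 was apart and lower, close to the 10.8% of all genes tested. That 1 gene, Tcf7l2, encodes a defining transcription factor of thalamic neurons and measured 2.78, 1.74 and 2.49 FPKM in KO and 3.59, 3.27 and 3.44 FPKM in WT replicates 1 to 3. Pcp2, a defining Purkinje cell gene, was below 0.5 FPKM in all 6 libraries. The sums of 6 Purkinje markers overlapped at 67.8 to 85.8 FPKM in KO and 64.0 to 76.4 FPKM in WT. Their most abundant genes were Calb1 (means of 32.8 FPKM in KO and 35.7 FPKM in WT) and Itpr1 (32.8 and 23.6 FPKM). With Pcp2 this low, these sums are no measure of Purkinje cells. The part of these cell types in the values of the clock output factors was not tested.

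**Figure D4:**
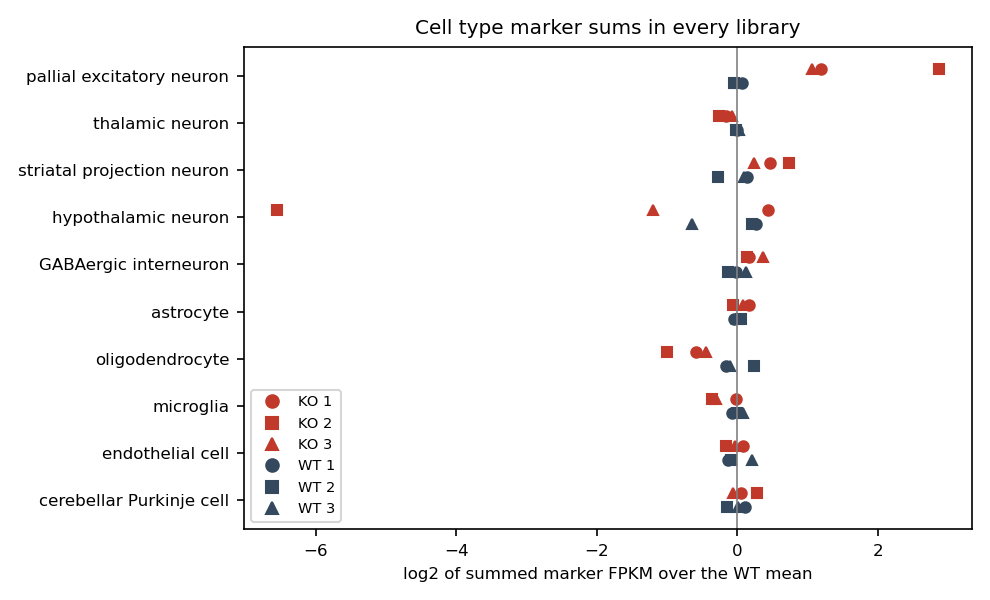
Log2 of the summed FPKM of each cell type marker list over its WT mean, one symbol per library, with KO drawn above WT in each row and symbols for replicates 1 to 3. KO replicate 2 stands farthest out, high for pallial excitatory neurons (139.0 FPKM) and low for hypothalamic neurons (8.62 FPKM).

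Core clock genes and their regulators were read beside the output factors. Of 16 such genes tested, 0 passed over all genes. Before adjustment 4 had a p under 0.05 with higher values in KO and 0 with lower values, against 8.36% and 6.85% of all genes. Of the 16, 6 were apart and higher, against 11.8% of all genes. The median log2 difference over the list was 0.086, with 12 positive and 4 negative. Among the KO libraries, KO replicate 2 held the highest value for 11 of the 16, against 39.6% of all genes tested. Per1, a period gene that light, activity and glucocorticoids also induce, measured 16.6, 16.4 and 14.5 FPKM in KO and 11.4, 12.1 and 11.8 FPKM in WT replicates 1 to 3. Npas2, the forebrain partner of BMAL1, measured 8.66, 9.65 and 6.79 FPKM in KO and 5.03, 4.36 and 5.34 FPKM in WT. Nr1d1, the REV-ERB alpha gene that opposes the ROR receptors, measured 21.3, 29.3 and 20.7 FPKM in KO and 16.9, 17.8 and 12.5 FPKM in WT. In each of these genes the KO values lay above the WT values, and the limma adjusted p was 0.187 for Per1, 0.187 for Npas2 and 0.242 for Nr1d1. Cry2, a repressor of CLOCK and BMAL1, was the remaining gene of the 4, with a log2 difference of 0.29 ± 0.11 SE and a limma adjusted p = 0.294.

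Per2, also a period gene, and Csnk1d, which encodes a casein kinase that marks period proteins for turnover, were also apart and higher, with log2 differences of 0.16 and 0.17 and unadjusted p over 0.05. Several other clock genes overlapped between the groups. Nr1d2, the REV-ERB beta gene, had a log2 difference of -0.095 with overlapping groups, and Per3, which often follows Dbp in time, had 0.042. Clock measured 5.77, 7.24 and 6.43 FPKM in KO and 8.17, 7.87 and 6.14 FPKM in WT replicates 1 to 3, also overlapping. Arntl had a log2 difference of 0.22 ± 0.15 SE, and KO replicate 2 was its highest library at 4.27 FPKM.

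**Figure D5:**
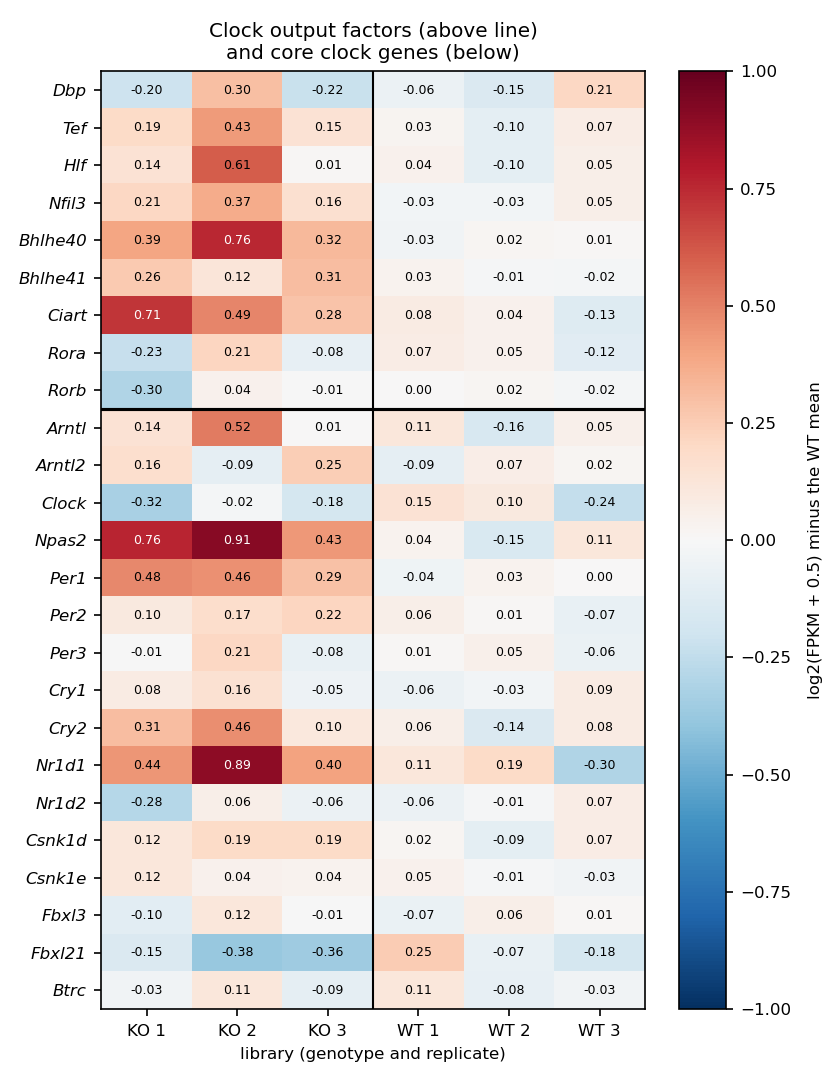
Log2(FPKM + 0.5) of the 9 clock output factors (above the line) and 16 core clock genes and regulators (below it) in each library, given as the difference from the WT mean, with KO libraries left of WT libraries. In KO replicate 2, Npas2 stands at 0.91, Nr1d1 at 0.89 and Bhlhe40 at 0.76, and in KO replicate 1, Npas2 stands at 0.76 and Ciart at 0.71.

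Genes described downstream of the clock factors were few in this tissue. Of 10 listed, 6 were tested, and 0 passed over all genes. The 4 below the filter, Nr1i3, Cyp2a5, Gys2 and Cyp7a1, are known mainly from liver. Before adjustment 3 had a p under 0.05 with higher values in KO and 0 with lower values, against 8.36% and 6.85% of all genes. Usp2, a ubiquitin protease gene with strong rhythms in many tissues, measured 13.0, 15.3 and 11.2 FPKM in KO and 9.47, 8.67 and 9.65 FPKM in WT replicates 1 to 3 (limma adjusted p = 0.205). Por, the electron donor of cytochrome P450 enzymes, had a log2 difference of 0.34 ± 0.11 SE, and Alas1, the first enzyme of haem synthesis, had 0.26 ± 0.10 SE with overlapping values. Pdxk, the pyridoxal kinase gene that depends on the PAR-bZIP factors in mouse brain, measured 28.2, 25.7 and 24.1 FPKM in KO and 28.5, 25.2 and 26.9 FPKM in WT. Its groups overlapped, with a log2 difference of -0.050 and a 95% interval of -0.25 to 0.15.

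For each of the 9 genes, the protein-coding genes with the most similar profile over the 6 libraries were sought among 12201 genes averaging 1 FPKM or more. Likeness was the root mean square difference of centred log2 values, a description that shares the same libraries throughout. The nearest profiles to Bhlhe40 were those of Ier5l (0.057) and Ctxn1 (0.067), against a spread of Bhlhe40 itself of 0.28. Ciart was nearest to Wdr89 (0.064) and Pkp2 (0.066), Bhlhe41 to Sema4b (0.022) and Rab8a (0.026), and Nfil3 to Thop1 (0.020) and Trak1 (0.022). Tef was nearest to Ppp2r2a (0.020) and Rexo1 (0.021), Hlf to Sept5 (0.032) and Tgfa (0.038), and Dbp to Ccdc51 (0.041) and B4galt3 (0.051). Rora was nearest to Fer (0.018) and Ank3 (0.035), and Rorb to Mapk8 (0.025) and Zc3h11a (0.026). No member was among the nearest profiles named here for another member. With so few profiles kept out of 12201 genes, this listing cannot show whether the members vary together.

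Overlapping gene models touch 6 of the 9 genes, each with 1 model on the opposite strand, and no source used here says whether counting used strand. Dbp overlaps Sphk2, a sphingosine kinase gene that held at most 567 reads in a library, against 1318 to 2185 reads for Dbp. The models that overlap Tef, Bhlhe40, Bhlhe41, Ciart and Rora held at most 36 reads in any library. Reads from a stretch shared by opposite strands cannot be told apart.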

How the data were processed

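RNA was sequenced from 6 samples, and per the labels' protocols libraries were made from total RNA with a SMARTer mRNA kit. The authors deposited 1 table of FPKM values with gene length, and the build is GRCm38, also called mm10, per the submitters' processing notes. Which aligner, counter, annotation release and strand setting served is information not given in the sources used here. All sample columns were matched by name. Reads were recovered from FPKM times length, which is a whole number of steps in each library (100% of nonzero values within 0.01 read). The library size implied by the FPKM values was 0.969 to 1.04 times the reads in genes, so it was not the plain read total. Median-ratio size factors of the deposited values were 1 in all 6 libraries, so that scaling alternative equals the deposited one. It is counted among the alternative fits but repeats the main fit, so it adds nothing to those counts. Reads carry no molecular identifiers, so counting errors cover counting only.

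Genotypes were compared by limma-trend, robust empirical Bayes (limma 3.58.1, R 4.3.3), on log2(FPKM + 0.5), a scale that understates the change of low genes. Genes averaging under 0.5 FPKM were left out, with Benjamini-Hochberg adjustment over all genes tested. The labels number the mice and say no more of them, so how much of the spread behind each p-value is technical is not known. By its sex markers, KO replicate 1 came from a different animal than KO replicates 2 and 3. In the knockout and wild-type comparison simulated with 16155 genes, the test recovered 76% of 2-fold and 94% of 4-fold changes with 16 false calls. In a simulation with none changed, 4 genes were called. The simulation gave all genes the same dispersion and had no library that stood apart, unlike the KO libraries here. It therefore does not give the power for the members, whose largest ratio of KO to WT was 1.45. Members and gene lists were chosen with earlier results of these data known. The named genes are all 9 members, up to 4 genes with the smallest p in each of 4 pathway lists, the most abundant markers, the 2 most similar profiles per member, Cntnap4, and the sex check. Nr1d2, Per2, Per3, Csnk1d, Clock, Arntl, the liver genes, Tcf7l2, Pcp2, Fos and the overlapping Sphk2 were named outside this rule after their values were seen. A gene planned for the core clock list is not reported here. Planned promoter motif searches were not run, since no sequence table was used here.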

Additional observations from a re-analysis of the deposited data

How the results depend on the processing

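None of the 9 genes passed over all genes in any of the 19 alternative fits, or at an adjusted p threshold of 0.1. The lowest adjusted p over the alternative fits was 0.123, for Bhlhe40 with voom on the recovered reads. The number of genes called over all genes was 2. It was 0 with a pseudocount of 0.1, no filter, a filter at 5 FPKM, the replicate block, protein-coding genes only or voom, 1 with quantile normalization, 5 with an equal FPKM sum, and 0 to 9 when any single library was left out. It was 29 without KO replicates 1 and 2, an alternative added after seeing the data in which KO replicate 3 is assumed to vary like the WT libraries. The 5 members with an unadjusted p under 0.05 and higher values became 2 with an equal FPKM sum, 2 with the replicate block, 2 without KO replicates 1 and 2, and 2 to 5 when any single library was left out. With the equal FPKM sum, 12.3% of all genes had an unadjusted p under 0.05, 4.09% with higher values, against 15.2% and 8.36% with the deposited scaling. The share with higher values was 5.66% with the replicate block and 5.34% to 7.74% when any single library was left out. The median log2 difference over the 9 members was 0.17 to 0.29 when any single library was left out and 0.15 without KO replicates 1 and 2. Members apart and lower numbered 0 to 1 when any single library was left out and 1 without KO replicates 1 and 2, and that gene was Dbp. Members apart and higher numbered 5 to 6, a count that leaving libraries out cannot lower.

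The sign turned for genes near 0. Dbp was 0.041 without KO replicate 1, 0.048 without KO replicate 3 and 0.063 without WT replicate 3. Rora was 0.064 without KO replicate 1 and 0.00043 without WT replicate 1, and Rorb was 0.018 without KO replicate 1. Leaving out single libraries gave ranges of -0.21 to 0.063 for Dbp, -0.16 to 0.064 for Rora and -0.16 to 0.018 for Rorb. Same-numbered samples did not deviate together, with correlations of -0.090, -0.14 and -0.066 for numbers 1 to 3. With 3 libraries per group this cannot exclude that some mice were paired, and the labels name no pairing. The filter at 5 FPKM left Nfil3, Rora and Rorb untested. At 89 to 124 reads, Nfil3 has the least depth of the 9.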

Other observations

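Genes that neurons switch on with activity, a class that includes Bhlhe40, had positive log2 differences. Of 20 listed genes without Bhlhe40, 19 were tested, 19 had a positive log2 difference and 0 passed over all genes. Before adjustment 11 had a p under 0.05 with higher values in KO and 0 with lower values, against 8.36% and 6.85% of all genes. Of the 19, 12 were apart and higher, against 11.8% of all genes, and the median log2 difference was 0.36. Among the KO libraries, KO replicate 2 held the highest value for 15 of the 19, against 39.6% of all genes tested. That library also had the highest pallial marker sum, 139.0 FPKM. The sum was 43.4 and 39.7 FPKM in KO replicates 1 and 3 and 18.4 to 19.9 FPKM in WT. The part of tissue composition in the values of these activity-induced genes was not tested. Junb, an AP-1 subunit gene, measured 21.5, 22.4 and 17.5 FPKM in KO and 12.6, 11.9 and 14.9 FPKM in WT replicates 1 to 3. Nptx2, a secreted synaptic pentraxin gene, measured 7.99, 9.26 and 7.77 FPKM in KO and 4.74, 4.93 and 6.53 FPKM in WT. Nr4a2, an orphan nuclear receptor gene, measured 4.73, 11.4 and 3.21 FPKM in KO and 1.07, 1.05 and 0.929 FPKM in WT. In these genes and in Btg2, an antiproliferative gene with a log2 difference of 0.45 ± 0.11 SE (limma adjusted p = 0.205), all KO libraries were above all WT libraries. Fos itself overlapped, at 2.71, 2.96 and 2.54 FPKM in KO and 1.82, 2.93 and 3.40 FPKM in WT, and it was named after its values were seen.

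Glucocorticoid-induced genes were mostly highest in KO replicate 1. Among the KO libraries, that library held the highest value for 11 of 12 genes, against 31.2% of all genes tested. All 12 listed genes were tested and 0 passed over all genes. Before adjustment 4 had a p under 0.05 with higher values in KO and 0 with lower values, against 8.36% and 6.85% of all genes. Of the 12 genes 3 were apart and higher, against 11.8% of all genes, and the median log2 difference was 0.44. Fkbp5, a glucocorticoid receptor co-chaperone gene, measured 11.2, 7.27 and 7.55 FPKM in KO and 5.07, 4.98 and 5.26 FPKM in WT replicates 1 to 3. Cdkn1a, a cell cycle inhibitor gene, measured 15.6, 5.47 and 5.42 FPKM in KO and 2.79, 3.52 and 4.18 FPKM in WT. Errfi1, a feedback inhibitor gene of the EGF receptor, had a log2 difference of 0.34 ± 0.12 SE, and Pdk4, which encodes a pyruvate dehydrogenase kinase, had 0.61 ± 0.21 SE with overlapping groups. For Fkbp5 and Cdkn1a the KO libraries were above the WT libraries, and KO replicate 1, where Ciart was also highest, stood above the other KO libraries.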
